A study of Homo sapiens with 15 samples.

Results

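The expression of 9 genes of plasminogen activation, tissue factor and protease-activated receptors was followed across the conditions of an RNA-seq experiment in HGrC1 cells. The genes were taken by symbol from the gene table: PLAU, PLAUR, PLAT, SERPINE2, SERPINB2, F2R, F2RL1, F3 and TFPI. They are 9 of 37787 genes, and all 9 passed the filter on low counts, which kept 13868 genes. HGrC1 is a line of immortalized, non-luteinized granulosa cells of human origin, and its own FOXL2 is not mutated. Its cells at passage 14 were lipofected for 4 h and then cultured for 24 h without serum. There were 5 conditions with 3 libraries each, lettered A, B and C.

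The controls, named Vectors, received empty plasmids. The condition FOXL2WT received SMAD3 and wild-type FOXL2, and FOXL2C134W received SMAD3 and FOXL2 with the substitution found in adult granulosa cell tumors. FOXL2WT + FOXO1 and FOXL2C134W + FOXO1 received in addition FOXO1-3A, a constitutively active form of FOXO1. The SMAD3 plasmid was thus given in every condition but Vectors. No condition received SMAD3 or FOXO1 alone, so that their effects against Vectors cannot be told apart from that of FOXL2. Expression was transient and driven from plasmids in a single line. The sources used here do not say whether the libraries of a condition came from separate cultures, and p-values then measure only the spread between these libraries, which may be technical. Levels of RNA also cannot tell fewer expressing cells from less RNA per cell.

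Plasminogen activators cut plasminogen to plasmin, a protease that dissolves fibrin and degrades extracellular matrix, and serpins block the activators. Tissue factor starts coagulation at the cell surface and leads to thrombin. Thrombin and other proteases act on cells by cutting the protease-activated receptors, which signal through G proteins. In the ovary, plasminogen activators of granulosa cells are known for their part in the breakdown of the follicle wall at ovulation.

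Values are given as CPM, estimated counts relative to the library total after TMM scaling, where one gene is compared between conditions. TPM, which also corrects for transcript length, is used where genes are compared with each other. A gene was called when the quasi-likelihood test of edgeR gave a Benjamini-Hochberg adjusted p under 0.05 over all 13868 genes, and fold changes are on the log2 scale with their standard error (SE). Library totals ran from 14962245 to 25339094 counts. The lowest count of any of the 9 genes was 172, for PLAT in a FOXL2WT library, and the highest was 15851, for F3.

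The transfected genes followed their labels. FOXL2 rose from 8.73 ± 0.704 CPM (SD, n = 3) in Vectors to 561 ± 5.89 in FOXL2WT, 384 ± 14.97 in FOXL2WT + FOXO1, 147 ± 27.0 in FOXL2C134W and 152 ± 20.1 in FOXL2C134W + FOXO1. SMAD3 was at 249 ± 11.99 CPM in Vectors, 2768 ± 154 in FOXL2WT, 969 ± 10.8 in FOXL2WT + FOXO1, 843 ± 37.4 in FOXL2C134W and 392 ± 16.9 in FOXL2C134W + FOXO1. FOXO1 reached 117 ± 14.5 CPM in FOXL2WT + FOXO1 and 43.2 ± 4.06 in FOXL2C134W + FOXO1, against 13.2 ± 0.867 in Vectors. The amounts of FOXL2 and SMAD3 RNA therefore differed between conditions, and the part of this in the results on the 9 genes was not tested. For protein, the study describes wild-type FOXL2, mutant FOXL2 and FOXO1 as balanced, by anti-Flag immunoblot of samples cultured in parallel. Of 13 granulosa markers, FSHR was at 0 in every library and CYP19A1 and INHA had at most 4 counts, while GATA4, WT1, NR2F2 and KRT18 were present. Without FOXL2 the granulosa markers, mostly KRT18 at 1668 to 1920 CPM, summed to 2095 to 2104 CPM in Vectors and 2122 to 2390 CPM elsewhere. Against Vectors NR2F2 (0.32) and KRT18 (0.12) rose in FOXL2C134W, and 1 granulosa marker was called lower in FOXL2WT. With FOXL2 itself counted, 3 granulosa markers were called higher in FOXL2C134W and 3 in FOXL2C134W + FOXO1. In FOXL2C134W + FOXO1 the mean of NR2F2 was 251 CPM and that of KRT18 1856 CPM, against 216 and 1672 CPM in Vectors. The 5 endothelial markers had a summed level of 34.7 to 38.0 CPM in Vectors and 24.9 to 31.3 CPM in the other conditions. Most of it was TEK, at 11.2 to 15.6 CPM, and KDR, at 8.63 to 15.4 CPM, while PECAM1 and VWF had at most 53 counts. Against Vectors 1 endothelial marker was called lower in FOXL2WT and in FOXL2WT + FOXO1, and 2 in FOXL2C134W and in FOXL2C134W + FOXO1. The summed blood cell markers, nearly all CD68, with PTPRC at no more than 5 counts and HBB at no more than 2, were at 103 to 117 CPM in Vectors and 88.9 to 97.8 CPM elsewhere. The summed fibroblast and stroma markers, mostly COL1A1 with DCN and LUM at no more than 6 counts, were at 1552 to 1627 CPM in Vectors and 1097 to 1384 CPM elsewhere. The epithelial markers, nearly all KRT19, with CDH1 at no more than 12 counts, summed to 384 to 389 CPM in Vectors and 332 to 382 CPM elsewhere. Calls against Vectors in these 3 lists were all lower. There was 1 blood cell marker called in each of the 4 conditions and 1 epithelial marker in FOXL2C134W only. Of the fibroblast and stroma markers 2 were called in FOXL2C134W + FOXO1 and 1 in each of the other conditions. The part of all these markers in the results was not tested.

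F3 was by far the most abundant of the 9 genes per length, with 261 to 390 TPM over the 15 libraries. PLAUR followed with 116 to 150 TPM, PLAU with 65.7 to 103, TFPI with 54.9 to 79.7 and F2R with 53.7 to 68.8. SERPINE2 had 27.5 to 40.0 TPM, F2RL1 17.5 to 24.3 and SERPINB2 16.0 to 26.1. PLAT was the lowest with 6.49 to 12.2 TPM. The TPM ranges of PLAU, TFPI and F2R overlapped, as did those of F2RL1 and SERPINB2.

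The sequences upstream of F3 and SERPINB2 are shown because the former gene was called in all 4 comparisons with Vectors and the latter in none by the edgeR test, and both windows hold an AP-1 site and a TATA box. They are from RefSeq on GRCh38.p14 and end at the base before the start site. F3 is on the minus strand, at chr1:94541760-94542009, and SERPINB2 on the plus strand, at chr18:63887455-63887704. Capitals mark matches, on either strand, to the SMAD box CAGAC, the AP-1 site TGANTCA, the SP1 box GGGCGG and the TATA box TATAAA.
F3: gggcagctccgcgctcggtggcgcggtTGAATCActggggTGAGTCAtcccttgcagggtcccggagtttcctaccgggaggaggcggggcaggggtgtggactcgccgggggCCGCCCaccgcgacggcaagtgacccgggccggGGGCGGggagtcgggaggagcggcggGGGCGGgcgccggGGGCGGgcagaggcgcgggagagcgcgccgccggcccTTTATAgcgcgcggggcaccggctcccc
SERPINB2: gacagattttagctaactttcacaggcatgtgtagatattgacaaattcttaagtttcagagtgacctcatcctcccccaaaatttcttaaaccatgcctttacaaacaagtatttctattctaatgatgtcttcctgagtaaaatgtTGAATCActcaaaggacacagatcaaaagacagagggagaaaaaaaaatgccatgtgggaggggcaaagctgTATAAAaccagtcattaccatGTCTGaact

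RefSeq gave 9 such windows of 250 bases for 7 of the genes, with 2 each for PLAU and SERPINE2. None was given for F2R and PLAT. The AP-1 site occurred in 3 of the 9 windows, those of F3, SERPINB2 and PLAUR, against 6.57% of 35116 promoter windows. The TATA box occurred in 2 windows (F3 and SERPINB2), against 10.7% of all. The SMAD box was present in 4 (F2RL1, PLAU, PLAUR and SERPINB2), against 38.0%, and the SP1 box in 5, against 42.6%. No window held the forkhead core TGTTTAC, which 2.98% of promoters hold. Searched in a shorter form, TAAACA, it had 1 match, in TFPI, against 10.99% of promoters. The NF-kappaB letters GGGNNNNNCC matched 7 windows and 54.4% of all promoters, and a stricter form of this consensus matched 0 windows and 5.21% of promoters. The shorter and the stricter forms were kept as additional searches after their matches had been seen. The PLAUR window lies wholly within exons of protein-coding genes. Matches overlap between motifs and are descriptions of letters, not of binding.

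Against Vectors, most of the genes moved. In FOXL2WT, 6 of the 9 genes were called, against 6.07% of all genes tested. In FOXL2C134W 7 were called, against 14.7%. In FOXL2WT + FOXO1 5 were called, against 3.78%, and in FOXL2C134W + FOXO1 6 were called, against 9.33%. PLAU, PLAUR, PLAT and TFPI fell and F3 rose in all 4 comparisons by the edgeR test. With transcript length offsets in DESeq2, PLAT was called in none of the 4 and TFPI only in FOXL2C134W. In that setting PLAU was not called in FOXL2WT + FOXO1. These comparisons share the Vectors libraries, so they are not independent of each other. The 9 genes were chosen with earlier results of these data known. Counts of calls among them, here and below, are therefore descriptions and not a test of the pathway.

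**Figure D1:**
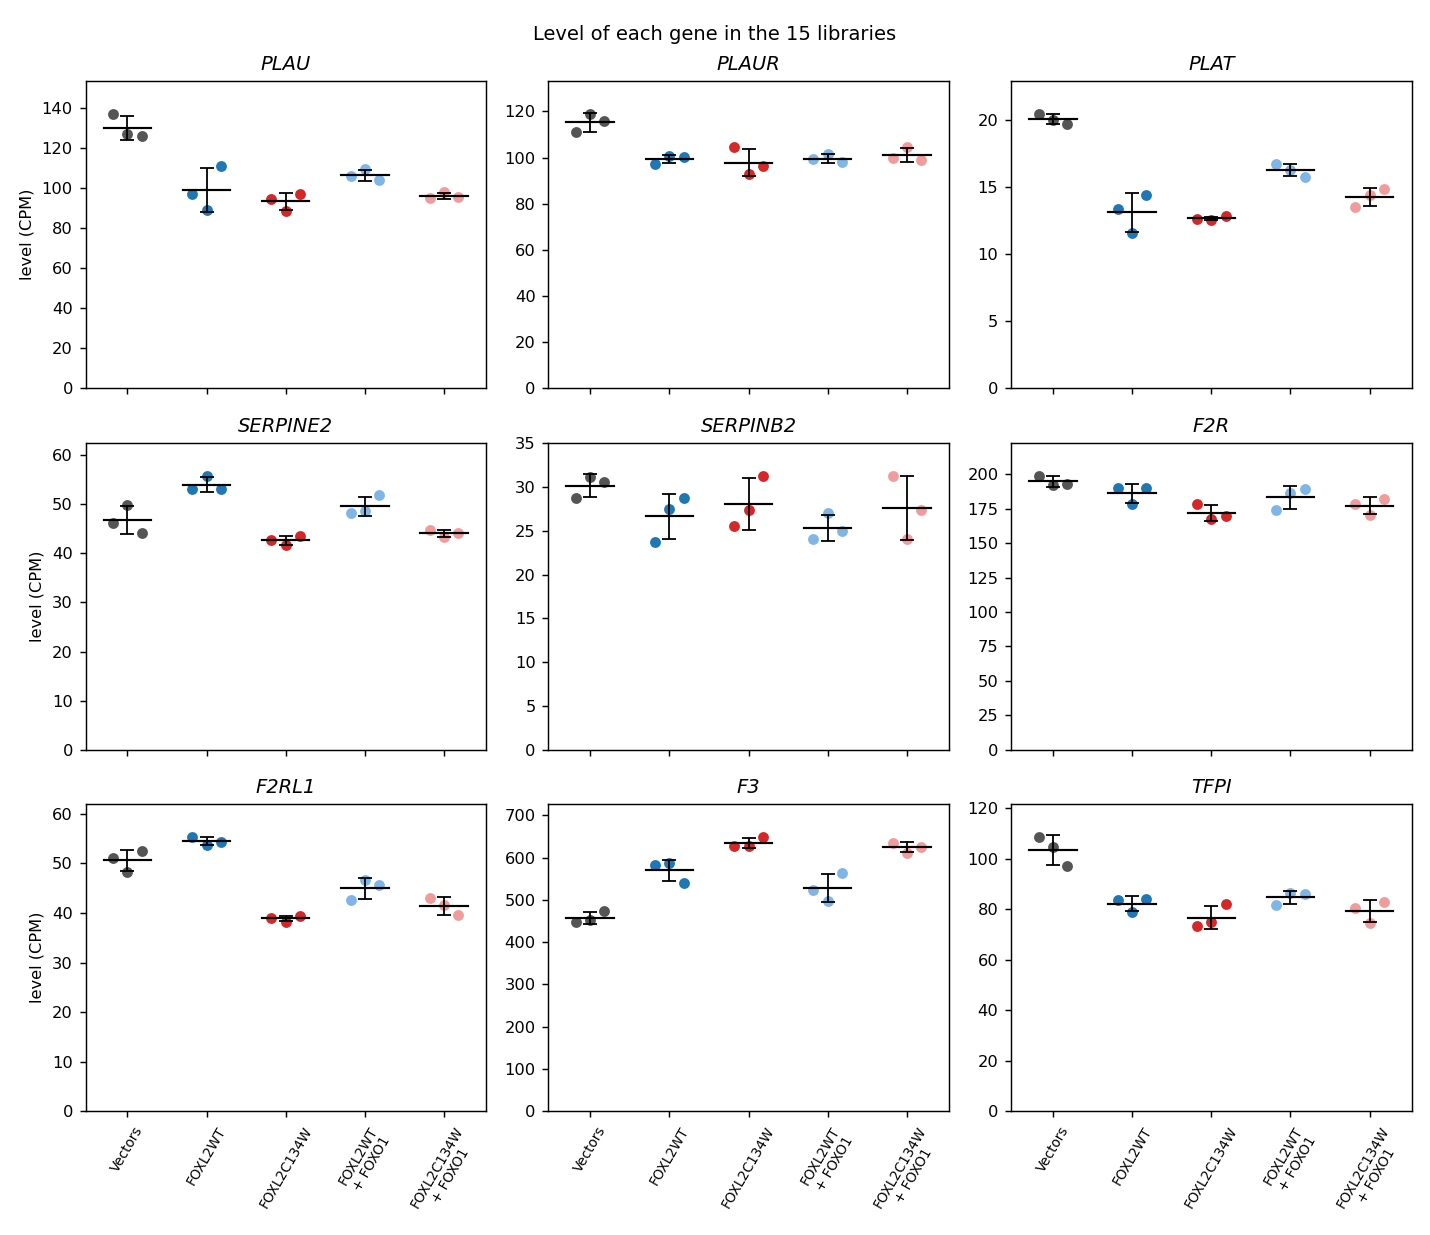
Level of each gene (y axis, CPM) in the 5 conditions (x axis), with 1 point per library and the mean ± SD of 3 libraries as bars. All libraries of the 4 conditions other than Vectors lie below Vectors for PLAU, PLAUR, PLAT, TFPI and, narrowly, F2R, and above Vectors for F3.

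PLAU encodes urokinase, the activator that works at the cell surface. It lies on chromosome 10, from 73909177 to 73917496 on the plus strand (GENCODE 44, GRCh38). PLAU was at 137, 127 and 126 CPM in Vectors A, B and C. It was at 97.3, 89.1 and 111 CPM in FOXL2WT and at 94.5, 88.8 and 97.4 CPM in FOXL2C134W. With FOXO1 it was at 106, 110 and 104 CPM in FOXL2WT + FOXO1 and at 95.3, 98.0 and 95.8 CPM in FOXL2C134W + FOXO1. Every Vectors library was above every other library, while the other conditions overlapped their neighbours in the order of means. FOXL2WT + FOXO1 was above both FOXL2C134W conditions in every library. The log2 fold change against Vectors was -0.39 (SE 0.061, adjusted p = 0.00085) in FOXL2WT and -0.48 (SE 0.061, adjusted p = 4.06e-05) in FOXL2C134W. It was -0.29 (adjusted p = 0.011) in FOXL2WT + FOXO1 and -0.43 (adjusted p = 0.00015) in FOXL2C134W + FOXO1. The call in FOXL2WT + FOXO1 was lost without Vectors A (adjusted p = 0.080), without FOXL2WT + FOXO1 C (0.057) and in DESeq2 with transcript length offsets (-0.16, adjusted p = 0.24).

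PLAUR encodes the receptor that holds urokinase at the cell surface, and lies on chromosome 19 from 43646095 to 43670547 on the minus strand. It was at 111, 119 and 116 CPM in Vectors. It was at 97.3, 100.5 and 100.2 CPM in FOXL2WT and at 105, 92.7 and 96.3 CPM in FOXL2C134W. The FOXO1 libraries lay between 97.9 and 105 CPM. Vectors did not overlap the other conditions, which all overlapped each other. The log2 fold change was -0.21 (SE 0.046, adjusted p = 0.0089) in FOXL2WT, -0.24 (SE 0.046, adjusted p = 0.0018) in FOXL2C134W, -0.21 (adjusted p = 0.014) in FOXL2WT + FOXO1 and -0.19 (adjusted p = 0.013) in FOXL2C134W + FOXO1. The call in FOXL2WT was lost without FOXL2WT A (adjusted p = 0.054). In FOXL2WT + FOXO1 it was lost without Vectors B (0.068), Vectors C (0.054) or FOXL2WT + FOXO1 C (0.064), and in FOXL2C134W + FOXO1 without Vectors B (0.069), Vectors C (0.0502), FOXL2C134W + FOXO1 A (0.052) or C (0.057).

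PLAT encodes tissue-type plasminogen activator, and lies on chromosome 8 from 42174718 to 42207709 on the minus strand. By the edgeR test it had the largest fall of the 9 genes in each comparison with Vectors, but with transcript length offsets in DESeq2 only in FOXL2C134W. PLAT was at 20.5, 19.97 and 19.7 CPM in Vectors, at 13.4, 11.5 and 14.4 CPM in FOXL2WT and at 12.6, 12.5 and 12.8 CPM in FOXL2C134W. It was at 16.7, 16.3 and 15.8 CPM in FOXL2WT + FOXO1 and at 13.5, 14.4 and 14.9 CPM in FOXL2C134W + FOXO1. FOXL2WT + FOXO1 stood between Vectors and the other conditions without overlap. The log2 fold change was -0.60 (SE 0.076, adjusted p = 8.74e-05) in FOXL2WT and -0.66 (SE 0.074, adjusted p = 1.15e-05) in FOXL2C134W. It was -0.30 (SE 0.074, adjusted p = 0.026) in FOXL2WT + FOXO1 and -0.49 (SE 0.074, adjusted p = 0.00028) in FOXL2C134W + FOXO1. FOXL2WT + FOXO1 was above FOXL2WT by 0.30 (SE 0.078), which did not pass the test (adjusted p = 0.22). With transcript length offsets in DESeq2, none of the 4 PLAT calls held, with log2 fold changes of -0.30, -0.53, -0.031 and -0.17 and adjusted p of 0.60, 0.16, 0.98 and 0.81. The call in FOXL2WT + FOXO1 was also lost without Vectors A (0.11), B (0.069) or C (0.061), or without FOXL2WT + FOXO1 B (0.070) or C (0.098).

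SERPINE2, or protease nexin-1, inhibits thrombin and urokinase, and lies on chromosome 2 from 223975045 to 224039318 on the minus strand. SERPINE2 was at 46.3, 49.9 and 44.1 CPM in Vectors, at 53.1, 55.8 and 53.0 CPM in FOXL2WT and at 42.8, 41.7 and 43.5 CPM in FOXL2C134W. It was at 48.2, 48.6 and 51.8 CPM in FOXL2WT + FOXO1 and at 44.7, 43.4 and 44.1 CPM in FOXL2C134W + FOXO1. FOXL2WT was above all other libraries, and the remaining conditions overlapped their neighbours in the order of means. FOXL2WT + FOXO1 was above both FOXL2C134W conditions in every library, and Vectors was above FOXL2C134W. SERPINE2 rose in FOXL2WT against Vectors by 0.21 (SE 0.052, adjusted p = 0.023). This call was lost without Vectors A (adjusted p = 0.10), Vectors C (0.11), FOXL2WT A (0.057) or FOXL2WT B (0.12), and with transcript length offsets (0.14). In the other comparisons with Vectors the log2 fold changes were -0.13, 0.086 and -0.084, none of them called.

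SERPINB2 encodes plasminogen activator inhibitor 2, and lies on chromosome 18 from 63871692 to 63903888 on the plus strand. It was at 28.7, 31.1 and 30.6 CPM in Vectors and between 23.7 and 31.3 CPM in the other libraries. Conditions adjacent in the order of means all overlapped. Every Vectors library was nevertheless above those of FOXL2WT, narrowly (28.69 against 28.68 CPM), and above those of FOXL2WT + FOXO1. SERPINB2 was not called in any of the 10 comparisons by the edgeR test. Without the filter on low counts it was called in FOXL2WT + FOXO1 against Vectors (-0.25, adjusted p = 0.040). Against Vectors its log2 fold changes were -0.18 (adjusted p = 0.31), -0.11 (0.51), -0.25 (0.18) and -0.13 (0.44) in FOXL2WT, FOXL2C134W, FOXL2WT + FOXO1 and FOXL2C134W + FOXO1, with SE of 0.093 to 0.095.

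F3 and TFPI moved in opposite directions. F3 is tissue factor, which starts coagulation, and lies on chromosome 1 from 94529173 to 94541759 on the minus strand. F3 was at 447, 453 and 474 CPM in Vectors. It was at 581, 586 and 541 CPM in FOXL2WT and at 627, 627 and 648 CPM in FOXL2C134W. With FOXO1 it was at 523, 497 and 564 CPM in FOXL2WT + FOXO1 and at 635, 611 and 626 CPM in FOXL2C134W + FOXO1. Both FOXL2C134W conditions were above both FOXL2WT conditions in every library, and Vectors was below all. F3 rose against Vectors by 0.31 (SE 0.045, adjusted p = 0.00029) in FOXL2WT, 0.47 (SE 0.045, adjusted p = 2.02e-06) in FOXL2C134W, 0.20 (SE 0.045, adjusted p = 0.014) in FOXL2WT + FOXO1 and 0.45 (SE 0.045, adjusted p = 4.55e-06) in FOXL2C134W + FOXO1. In FOXL2WT + FOXO1 the call was lost without Vectors A (0.081), Vectors B (0.056) or FOXL2WT + FOXO1 C (0.080).

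TFPI encodes tissue factor pathway inhibitor, the inhibitor of the complex of tissue factor and factor VIIa, and lies on chromosome 2 from 187464230 to 187565760 on the minus strand. TFPI was at 109, 105 and 97.1 CPM in Vectors, at 83.7, 78.8 and 84.1 CPM in FOXL2WT and at 73.5, 74.8 and 82.0 CPM in FOXL2C134W. It was at 81.8, 86.6 and 85.9 CPM in FOXL2WT + FOXO1 and at 80.7, 74.5 and 83.0 CPM in FOXL2C134W + FOXO1. Vectors stood above the other conditions, which overlapped. The log2 fold change was -0.33 (SE 0.055, adjusted p = 0.0013) in FOXL2WT, -0.43 (SE 0.055, adjusted p = 3.93e-05) in FOXL2C134W, -0.28 (adjusted p = 0.0056) in FOXL2WT + FOXO1 and -0.38 (adjusted p = 0.00018) in FOXL2C134W + FOXO1. With transcript length offsets in DESeq2 only the call in FOXL2C134W held, and the log2 fold change was -0.20 (adjusted p = 0.30) in FOXL2WT, -0.17 (0.48) in FOXL2WT + FOXO1 and -0.28 (0.070) in FOXL2C134W + FOXO1.

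The ratio of F3 to TFPI counts within a library, a quantity chosen after the values were seen and given without a test, was 4.11, 4.33 and 4.88 in Vectors. It was 6.94, 7.44 and 6.43 in FOXL2WT and 8.54, 8.38 and 7.90 in FOXL2C134W. With FOXO1 it was 6.40, 5.74 and 6.56 in FOXL2WT + FOXO1 and 7.87, 8.20 and 7.54 in FOXL2C134W + FOXO1. On the CPM scale the FOXL2C134W conditions did not overlap the FOXL2WT conditions, and Vectors was lowest. As a ratio of TPM they did overlap, with 5.43 in FOXL2C134W + FOXO1 C and 5.57 in FOXL2WT B, and Vectors was again lowest at 3.27 to 3.86.

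**Figure D2:**
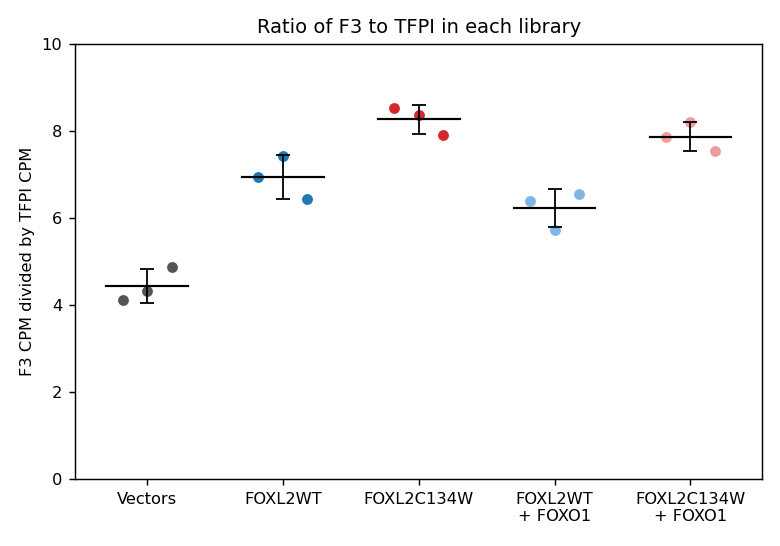
F3 CPM divided by TFPI CPM (y axis) in each of the 15 libraries by condition (x axis), with the mean ± SD of 3 libraries. The ratio lies between 4.11 and 4.88 in Vectors and between 5.74 and 8.54 in the other conditions.

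The receptors differed from each other. F2R is the receptor cut by thrombin (PAR1), on chromosome 5 from 76716126 to 76735770 on the plus strand. F2R was at 199, 192 and 193 CPM in Vectors, and between 168 and 190 CPM in the other libraries. It fell in FOXL2C134W, to 178, 168 and 169 CPM, by 0.18 on the log2 scale (SE 0.043, adjusted p = 0.0075). Without FOXL2C134W B this call was lost (adjusted p = 0.056). The other differences from Vectors, -0.065, -0.087 and -0.14, did not pass the test, the last with an adjusted p of 0.053. That difference, in FOXL2C134W + FOXO1, was called in DESeq2 (adjusted p = 0.032) and with at least 10 counts in every library (0.041).

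F2RL1 is the receptor cut by trypsin-like proteases (PAR2), and lies on chromosome 5 from 76818933 to 76835315 on the plus strand. F2RL1 was at 51.0, 48.3 and 52.5 CPM in Vectors, at 55.3, 53.6 and 54.4 CPM in FOXL2WT and at 39.0, 38.2 and 39.4 CPM in FOXL2C134W. It was at 42.5, 46.5 and 45.7 CPM in FOXL2WT + FOXO1 and at 43.0, 41.6 and 39.5 CPM in FOXL2C134W + FOXO1. FOXL2WT was the highest and FOXL2C134W the lowest condition, and only the FOXO1 conditions overlapped each other. F2RL1 fell against Vectors in FOXL2C134W by 0.38 (SE 0.051, adjusted p = 6.07e-05) and in FOXL2C134W + FOXO1 by 0.29 (SE 0.051, adjusted p = 0.00099). The differences in FOXL2WT (0.10, adjusted p = 0.25) and FOXL2WT + FOXO1 (-0.17, adjusted p = 0.076) were not called.

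**Figure D3:**
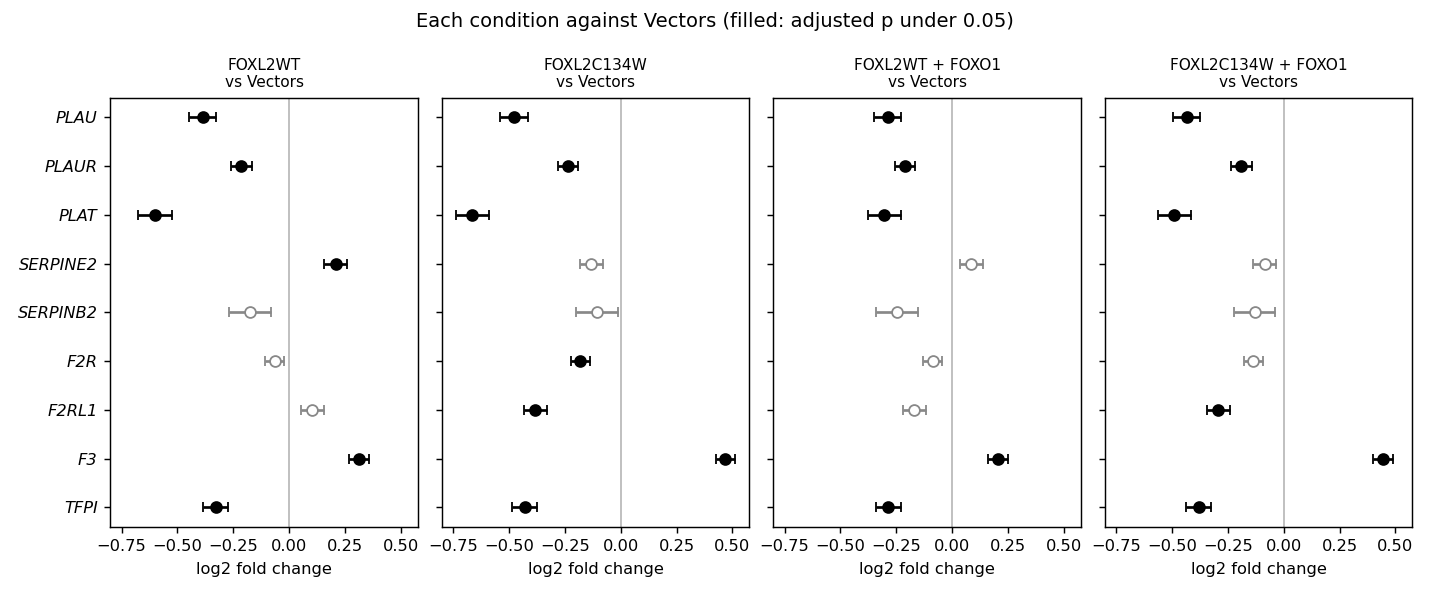
Log2 fold change against Vectors (x axis) of the 9 genes (y axis) in the 4 other conditions, with the SE as bars and filled points where the adjusted p was under 0.05. F3 lies above 0 and PLAU, PLAUR, PLAT and TFPI below 0 in every panel, and SERPINB2 is open in all.

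FOXL2C134W was compared with FOXL2WT to ask what differs between mutant and wild-type FOXL2. These conditions also differed in FOXL2 RNA (147 against 561 CPM) and SMAD3 RNA (843 against 2768 CPM), whose part cannot be told apart from that of the substitution. In it 3 of the 9 genes were called, against 11.2% of all genes tested. F2RL1 was lower in FOXL2C134W by -0.49 (SE 0.051, adjusted p = 1.36e-05) and SERPINE2 by -0.34 (SE 0.052, adjusted p = 0.00040). F3 was higher by 0.16 (SE 0.044, adjusted p = 0.029), a call that was lost without FOXL2WT A (0.052), FOXL2WT C (0.12), FOXL2C134W B (0.059) or FOXL2C134W C (0.12). PLAU, PLAUR, PLAT and TFPI, which fell in both conditions against Vectors, differed between them by -0.090, -0.021, -0.061 and -0.10, none of them called.

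With FOXO1 on both sides, 1 gene was called between FOXL2C134W + FOXO1 and FOXL2WT + FOXO1, against 0.144% of all genes. This was F3, higher by 0.24 (SE 0.045, adjusted p = 0.032). The call did not hold when only the libraries compared were fitted (adjusted p = 0.20). It was also lost without FOXL2WT + FOXO1 A (0.11) or B (0.17), or without FOXL2C134W + FOXO1 A (0.17), B (0.059) or C (0.087). F2RL1 and SERPINE2 differed by -0.12 (adjusted p = 0.31) and -0.17 (0.21).

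The effect of adding FOXO1 was not called for any of the 9 genes in either background, where 0.0505% of all genes were called in FOXL2WT and 0.714% in FOXL2C134W by the edgeR test. At an unadjusted p under 0.05, 4 of the 9 genes differed in FOXL2WT, against 9.13% of all genes, and 1 in FOXL2C134W, against 11.2%. The largest difference in FOXL2WT was that of PLAT given above, and F2RL1 followed with -0.27 (SE 0.051, adjusted p = 0.060). This difference in F2RL1 was called in DESeq2 (adjusted p = 0.0047), in DESeq2 with transcript length offsets (0.0045) and without the filter on low counts (0.0053). PLAU was called with transcript length offsets (0.28, adjusted p = 0.028), against 0.098 by edgeR. Of the 9 genes DESeq2 called 1 in FOXL2WT, against 0.447% of all genes, and 0 in FOXL2C134W, against 1.61%. With FOXO1, SMAD3 RNA was lower in FOXL2WT (-1.51) and in FOXL2C134W (-1.11), and FOXL2 RNA was lower in FOXL2WT (-0.55). The part of these changes cannot be told apart from that of FOXO1.

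Between FOXL2C134W + FOXO1 and FOXL2WT, 2 of the 9 genes were called, against 1.69% of all genes. F2RL1 was lower by -0.40 (SE 0.051, adjusted p = 0.00045) and SERPINE2 by -0.29 (SE 0.052, adjusted p = 0.0083). The SERPINE2 call was lost without FOXL2WT B (0.069) and with transcript length offsets (-0.073, adjusted p = 0.81). F3, at 0.13 (adjusted p = 0.12), was called in DESeq2 (adjusted p = 0.045) and without the filter on low counts (0.041).

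The effect of FOXO1 in FOXL2C134W minus its effect in FOXL2WT was called for 1 of the 9 genes, against 1.38% of all genes. For F2RL1 this difference was 0.36 (SE 0.073, adjusted p = 0.017), with a log2 change of -0.27 upon FOXO1 in FOXL2WT and 0.089 in FOXL2C134W. It was not called without FOXL2WT B (0.052), FOXL2C134W B (0.058) or FOXL2C134W + FOXO1 A (0.070). FOXO1 RNA itself differed between the backgrounds, as given above. The changes upon FOXO1 in SMAD3 RNA (0.41, adjusted p = 0.0065) and FOXL2 RNA (0.60, adjusted p = 0.033) also differed between them by the edgeR test. Their part in the F2RL1 difference was not tested.

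**Figure D4:**
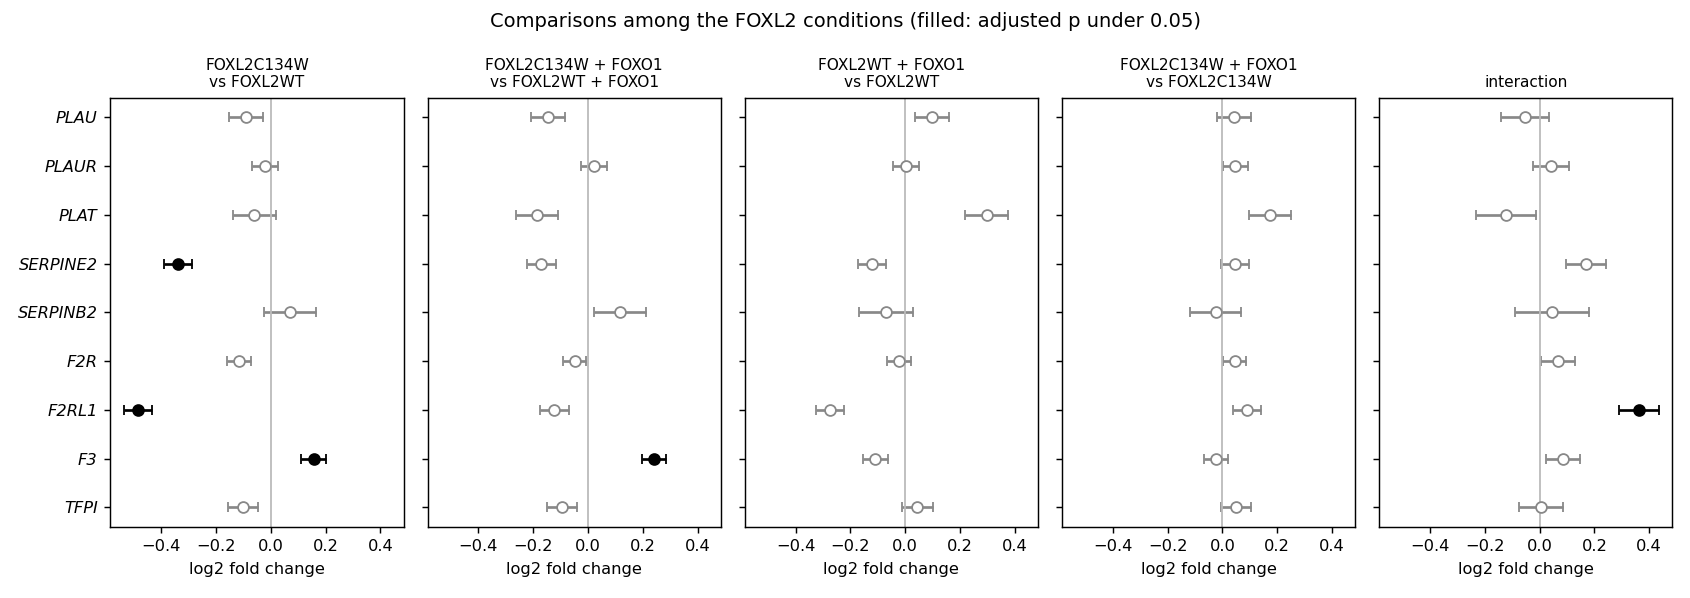
Log2 fold change (x axis) of the 9 genes (y axis) in 4 comparisons among the conditions other than Vectors and in the difference between the effects of FOXO1 (panel named interaction), with the SE as bars and filled points where the adjusted p was under 0.05. Filled points are F2RL1, SERPINE2 and F3 in the first panel, F3 in the second and F2RL1 in the last.

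Other genes of the pathway were taken from 4 lists of 42 genes in all, of which 29 were tested. Against Vectors, 2 rose and 6 fell in FOXL2WT, 2 rose and 7 fell in FOXL2C134W, 2 rose and 2 fell in FOXL2WT + FOXO1, and 2 rose and 4 fell in FOXL2C134W + FOXO1, with medians of -0.0072, -0.041, -0.068 and -0.030. Of all genes 6.07%, 14.7%, 3.78% and 9.33% were called in these comparisons. The lists too were chosen with earlier results known, so these counts are not a test. Between FOXL2C134W and FOXL2WT 2 were higher and 2 lower, against 11.2% of all genes, 1 was lower in the difference between the effects of FOXO1, against 1.38%, and none was called in the other comparisons.

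Of 10 genes for plasminogen and its inhibitors 3 were tested. Plasminogen itself (PLG) had at most 2 counts in a library. SERPINA5, the protein C inhibitor, fell in FOXL2C134W against Vectors by 1.53 (SE 0.47, adjusted p = 0.033), at 2 to 17 counts per library.

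Of 11 genes for cell surface assembly and clearance, all were tested. VLDLR, an endocytic receptor, rose against Vectors by 0.18, 0.17, 0.18 and 0.24 in FOXL2WT, FOXL2C134W, FOXL2WT + FOXO1 and FOXL2C134W + FOXO1. S100A10, which forms a plasminogen-binding complex with annexin A2, fell in FOXL2WT (-0.25), FOXL2C134W (-0.23) and FOXL2C134W + FOXO1 (-0.21). SORL1 fell in FOXL2WT (-0.33) and FOXL2C134W (-0.27). LRP1, which clears complexes of activators and serpins, fell in FOXL2WT by 0.58 (SE 0.11, adjusted p = 0.0049) and was higher in FOXL2C134W than in FOXL2WT by 0.82 (SE 0.11, adjusted p = 0.00017). For LRP1 the effect of FOXO1 differed between the backgrounds by -0.81 (SE 0.16, adjusted p = 0.016). IGF2R was higher in FOXL2C134W than in FOXL2WT (0.17).

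Of 11 genes for the start of coagulation and the control of thrombin 5 were tested, and prothrombin (F2), F5 and F10 had at most 3 counts. TFPI2, a related protease inhibitor, fell against Vectors by 0.57, 0.76, 0.53 and 0.76 in the order of conditions above, with SE of 0.055, and was lower in FOXL2C134W than in FOXL2WT (-0.19). THBD, or thrombomodulin, rose by 0.37, 0.38, 0.23 and 0.31. PROCR, the protein C receptor, fell in FOXL2C134W (-0.28) and in both FOXO1 conditions (-0.21 each), and was lower in FOXL2C134W than in FOXL2WT (-0.17). PROS1, protein S, fell in FOXL2C134W (-0.26). All 10 genes for receptors and their couplings were tested, and ARRB1, encoding beta-arrestin 1, fell in FOXL2WT (-0.27), FOXL2C134W (-0.31) and FOXL2C134W + FOXO1 (-0.33). The other receptors F2RL2 and F2RL3 were at 1.58 to 3.25 and 3.64 to 5.51 CPM and were not called.

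**Figure D5:**
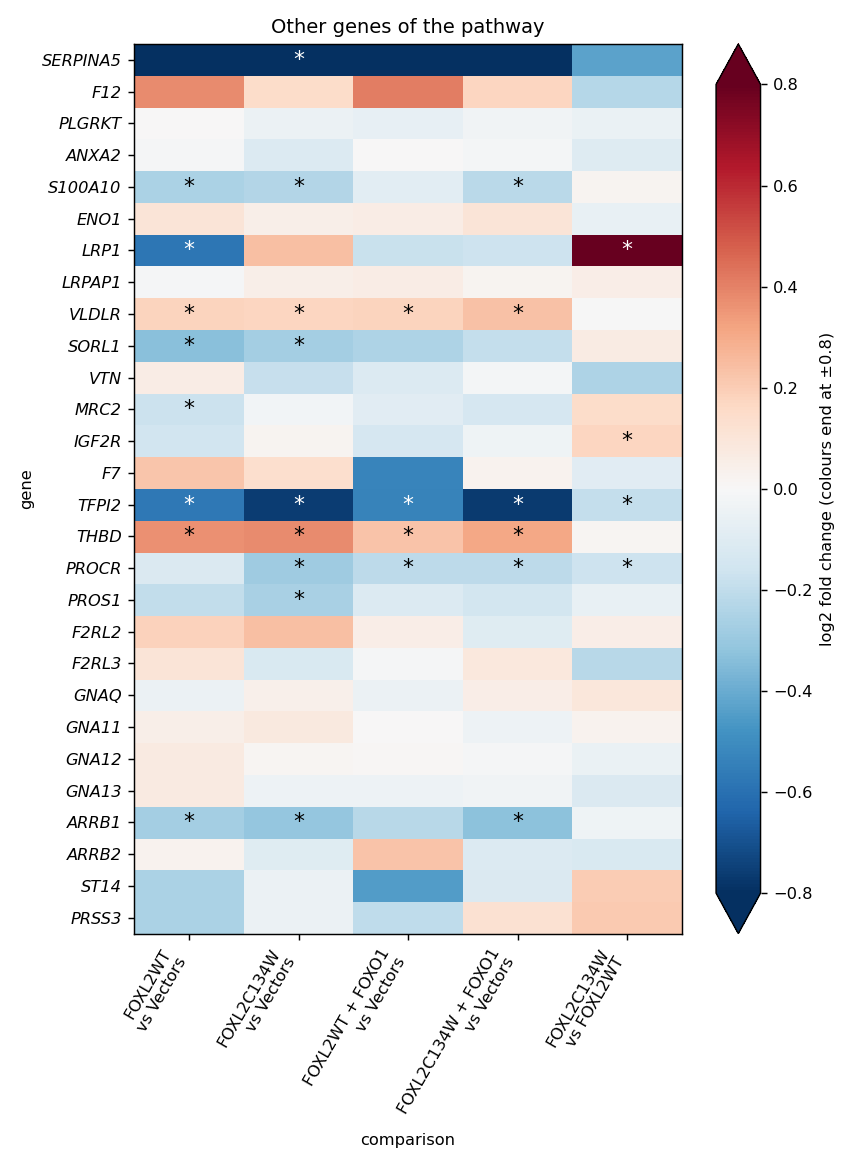
Log2 fold change (colour) of other pathway genes that were tested (y axis) in 5 comparisons (x axis), with an asterisk where the adjusted p was under 0.05 and with larger changes shown in the end colours. TFPI2 is lower and THBD and VLDLR are higher in all 4 comparisons with Vectors.

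Transcript shares, the TPM of a transcript as a percent of its gene, are estimates by salmon from single-end reads and were not tested. F2R-201 and F2RL1-201 held at least 97.8% and 97.0% of their genes in every library, and F3-201 held 88.6% to 92.5%. PLAU was divided between PLAU-201 (55.3% to 73.3%) and the short PLAU-203 of 468 bases (22.3% to 40.7%). The share of PLAU-203 was 25.8% ± 3.10 in FOXL2WT and 36.3% ± 3.98 in FOXL2WT + FOXO1 (SD, n = 3), and these did not overlap. TFPI-201 held 34.6% ± 2.29 in Vectors and 30.1% ± 0.925 in FOXL2WT, and the 687-base TFPI-208 held 15.5% ± 3.10 and 23.7% ± 2.29. In FOXL2C134W, FOXL2WT + FOXO1 and FOXL2C134W + FOXO1, TFPI-201 held 28.4% ± 5.63, 30.5% ± 2.17 and 31.1% ± 2.19. TFPI-208 held 16.7% ± 2.77, 21.6% ± 4.80 and 17.6% ± 2.11 in the same order. TFPI-207 ranged from 13.6% to 30.8% over the libraries. PLAT-203 ranged from 0% to 79.4% between libraries, SERPINE2-209, a retained intron, from 0% to 30.1%, and SERPINB2-201 was at 54.3% in the library where it was lowest. These are the genes whose effective lengths varied most between libraries, and PLAT ran from 1365 to 2338 bases.

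The genes most like each member were found by Pearson's r of log2-CPM over the 15 libraries among 10617 genes, as a description in which the libraries share their conditions. They were TNFSF10 (0.96), COL3A1 (0.96) and B4GALT5 (0.95) for PLAU. TM4SF1 (0.96), LRRC17 (0.96) and PLAU (0.94) came closest to PLAT, and TNFSF10 (0.97), CEACAM1 (0.97) and PAM (0.96) to TFPI. For F3 they were EIF3B (0.98), ZNHIT6 (0.95) and GTPBP4 (0.93), and for PLAUR PRSS23 (0.91), FAM214B (0.89) and PINK1 (0.89). F2R was closest to DSE (0.92), CCDC69 (0.91) and PDCL (0.91), and F2RL1 to MAP3K8 (0.91), UBE2L6 (0.90) and CD164 (0.90). SERPINE2 was closest to SLC39A14 (0.89), ISCU (0.88) and RBM7 (0.87), and SERPINB2 to STXBP3 (0.84), PIGA (0.83) and GPR161 (0.77). Within the 9 genes, PLAU had an r of 0.92 with TFPI and -0.92 with F3, and SERPINE2 an r of 0.76 with F2RL1.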

How the data were processed

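RNA from HGrC1 cells was sequenced by the study as stranded 75-base single-end libraries. The authors estimated transcript abundance with Salmon 1.1.0 on hg38 and deposited estimated counts of 37787 genes, held as whole numbers and not normalized. The deposited TPM values are the authors' Salmon estimates for 227063 transcripts per library and were summed to genes here. The GENCODE release is not given in the sources used here. Coordinates were taken from GENCODE 44, which held 98.4% of the transcript identifiers.

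All 15 libraries were fitted together in edgeR 4.0.16 (R 4.3.3) after filterByExpr and TMM, with differences between conditions tested by quasi-likelihood F tests at a Benjamini-Hochberg adjusted p under 0.05. The SE of a fold change was its size divided by the square root of F. The test was checked on simulated data for FOXL2C134W against FOXL2WT. It recovered 60% of 1.25-fold, 62% of 1.5-fold, 84% of 2-fold and 96% of 3-fold changes. Of its 156 calls, 5 were false. A difference that was not called may therefore still be present. Log2-CPM had a prior count of 2. Genes were named by rule: all 9 members, the transfected genes, the called pathway genes (at most 4 per list and comparison) and the 3 genes most like each member. PLG, F2, F5, F10, F2RL2 and F2RL3 were named besides, after their values were seen, and 1 tested gene of the lists is counted but not reported here. Members and lists were chosen with earlier results of these data known. Motif letters had not been written into the plan. Of the 8 forms searched, 2 are second definitions of the forkhead core and of NF-kappaB that were run first and kept beside the main letters with their matches seen. Alternatives used DESeq2 1.42.0, with and without transcript length offsets, other filters and scaling, only the libraries compared, a block for the replicate letter and fits without each library. The study itself used tximport and DESeq2 for its tests.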

Additional observations from a re-analysis of the deposited data

Results flagged for a closer look

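The effect of FOXO1 on F2RL1, the gene of PAR2, differed between the backgrounds: the change upon FOXO1 in FOXL2C134W minus that in FOXL2WT was 0.36 on the log2 scale (SE 0.073, edgeR adjusted p = 0.017). It was not called in 3 of 12 fits without one library, those without FOXL2WT B (0.052), FOXL2C134W B (0.058) or FOXL2C134W + FOXO1 A (0.070). F2RL1 was lower in each of the 3 FOXL2WT + FOXO1 libraries (42.5 to 46.5 CPM) than in the FOXL2WT libraries (53.6 to 55.3 CPM), and in FOXL2C134W it was at 38.2 to 39.4 CPM without and 39.5 to 43.0 CPM with FOXO1. FOXL2 RNA was lower with FOXO1 in FOXL2WT (561 against 384 CPM) and SMAD3 RNA in both backgrounds (2768 against 969 and 843 against 392 CPM), and FOXO1 RNA was at 117 CPM in FOXL2WT + FOXO1 and 43.2 CPM in FOXL2C134W + FOXO1, and their part in this difference was not tested.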

How the results depend on the processing

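Counts of called genes among the 9 changed by over 1.5 times in 4 settings. With transcript length offsets in DESeq2, 3 were called in FOXL2WT and 2 in FOXL2WT + FOXO1 against Vectors, 2 in FOXL2WT + FOXO1 against FOXL2WT and 1 in FOXL2C134W + FOXO1 against FOXL2WT, where the counts had been 6, 5, 0 and 2. Of all genes 3.54%, 2.96%, 0.498% and 1.74% were called in this setting. DESeq2 called 1 and the fit without a filter beyond 1 count called 1 in FOXL2WT + FOXO1 against FOXL2WT, against 0.447% and 1.14% of all genes. With only the libraries compared, 0 were called between the FOXO1 conditions, where 1 had been, against 0.0673% of all genes. The cause was not tested. Of 90 fold changes, 70 kept direction and side of the threshold with transcript length offsets, 86 in DESeq2 and 87 without the filter.

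Without each library in turn, the count ran from 1 to 5 in FOXL2WT + FOXO1 against Vectors, from 0 to 1 between the FOXO1 conditions and for the difference between the effects of FOXO1, and from 1 to 2 for FOXL2C134W + FOXO1 against FOXL2WT. It was 2 without Vectors A, 2 without Vectors B, 3 without Vectors C and 1 without FOXL2WT + FOXO1 C in the first of these, and the libraries behind the others are named in the report. Of such fold changes 531 kept direction and call, 36 lost the call and 27 changed direction.

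Changes of direction concerned only differences that were not called. With transcript length offsets these were SERPINE2 in FOXL2C134W + FOXO1 against Vectors (0.18) and against FOXL2WT + FOXO1 (0.075), PLAU (0.0059) and PLAUR (0.030) in FOXL2C134W against FOXL2WT, PLAU in FOXL2C134W + FOXO1 against FOXL2WT (0.12), SERPINB2 upon FOXO1 in FOXL2C134W (0.019), and PLAUR (-0.0098) and PLAT (0.083) in the difference between the effects of FOXO1. For TFPI that difference was -0.00081 in DESeq2, -0.00080 with DESeq2 size factors, -0.0053 with at least 10 counts in every library and -0.00063 with only the libraries compared. Without each library it ran from -0.032 to 0.055 for TFPI, from -0.15 to 0.0060 for PLAU, from -0.00044 to 0.088 for PLAUR and from -0.053 to 0.13 for SERPINB2. For FOXL2C134W against FOXL2WT the ranges were -0.15 to 0.011 for PLAU, -0.065 to 0.024 for PLAUR, -0.13 to 0.024 for PLAT and -0.013 to 0.14 for SERPINB2. For FOXL2C134W + FOXO1 against FOXL2WT they were -0.11 to 0.048 for PLAU, -0.0015 to 0.046 for PLAUR and -0.053 to 0.13 for SERPINB2. PLAUR ran from -0.0050 to 0.042 between the FOXO1 conditions and from -0.011 to 0.016 upon FOXO1 in FOXL2WT, F2R from -0.049 to 0.015 there, and SERPINB2 from -0.12 to 0.059 upon FOXO1 in FOXL2C134W.

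Deviations from the condition mean correlated at a median of 0.0036 over 30 pairs with the same letter, 2 of them over 0.1 and the highest at 0.166. Over 60 pairs with different letters the median was 0.0058, with 4 over 0.1 and the highest at 0.123. Whether libraries of the same letter shared a transfection or batch cannot be told from these correlations. With the replicate letter as a block all 90 fold changes kept direction and call, and the counts against Vectors stayed at 6, 7, 5 and 6. The count of transcripts holding at least 10% of a gene was 18, and 26 at 5%. The other pathway genes were not refitted under these alternatives.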
